A study of Mus musculus with 16 samples.

Results

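The oxidation of fatty acids and the handling of ketone bodies were followed through 33 genes, chosen by name, among the 45513 genes counted in colonic epithelium. All 33 were found in the count tables under their Ensembl identifiers, and all 33 had enough reads to be tested. The libraries came from 8 Atoh1(WT)CreERT2 R26RtdTom mice, in which a tamoxifen-inducible Cre recombinase was inserted behind the intact Atoh1 coding sequence and switches on the tdTomato reporter in cells that express Atoh1, the transcription factor that specifies secretory cells. Every mouse received 1 mg of tamoxifen per day on 3 days, according to the labels, and no untreated or Cre-negative mice are part of the comparison. EpCAM+ tdTom+ cells (8 libraries) and EpCAM+ tdTom− cells (8 libraries) were sorted from the crypt-enriched fraction of each colon, so that both populations carried the same alleles and the same treatment. The tdTom− population is everything that the reporter did not mark and is therefore a mixture. The labels used here give no age.

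Long-chain fatty acids are activated to acyl-CoA by synthetases, carried into mitochondria as carnitine esters through CPT1 and CPT2, and shortened there in repeated rounds of dehydrogenation, hydration, a second dehydrogenation and thiolysis, with the electrons of the first step passed to ubiquinone by the electron transfer flavoprotein. Peroxisomes shorten very long and branched chains with enzymes of their own. The acetyl-CoA produced can enter the citric acid cycle or be turned into ketone bodies, and absorptive colonocytes are known for oxidizing short-chain fatty acids, butyrate above all, that bacteria release into the lumen.

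The RefSeq table of promoters (GRCm38.p6) held a window, from 250 bases before to 50 bases after a transcription start, for 28 of the 33 genes. Acaa2, Acat1, Crat, Decr1 and Hsd17b4 had none. The windows below belong to Pdk4, which fell most, to Acsl1 and Acadsb, which rose most, and to Cpt1a and Acadm, which fell and hold the letters AGGTCA or their reverse complement, the half-site that nuclear receptors such as PPARα can bind. Capitals mark AGGTCA on either strand and the palindrome CAGCTG, an E-box of the kind that basic helix-loop-helix factors such as ATOH1 can bind. Each is written 5′ to 3′ on the strand of its gene. The Pdk4 window lies at chr6:5496229-5496528 on the minus strand and holds neither motif.
Pdk4: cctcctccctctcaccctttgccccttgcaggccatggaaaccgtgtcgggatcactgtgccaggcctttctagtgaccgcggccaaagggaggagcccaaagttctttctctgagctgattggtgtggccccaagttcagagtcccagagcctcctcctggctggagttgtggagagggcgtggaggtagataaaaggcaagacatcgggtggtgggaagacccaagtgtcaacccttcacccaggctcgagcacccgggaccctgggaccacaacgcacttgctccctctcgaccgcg
The table lists 2 starts for Acsl1. The window of the downstream start, at chr8:46490716-46491015 on the plus strand, holds CAGCTG beginning at position -58 from the start, and that of the upstream start (chr8:46470787-46471086) holds neither motif.
Acsl1, downstream start: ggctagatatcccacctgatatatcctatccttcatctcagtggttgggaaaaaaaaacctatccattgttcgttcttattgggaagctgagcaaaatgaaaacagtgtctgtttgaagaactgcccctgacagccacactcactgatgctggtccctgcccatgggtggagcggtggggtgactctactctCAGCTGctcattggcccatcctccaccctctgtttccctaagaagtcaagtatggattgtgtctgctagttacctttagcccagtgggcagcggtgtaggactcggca
The Acadsb window is at chr7:131410351-131410650 on the plus strand, with CAGCTG at -128.
Acadsb: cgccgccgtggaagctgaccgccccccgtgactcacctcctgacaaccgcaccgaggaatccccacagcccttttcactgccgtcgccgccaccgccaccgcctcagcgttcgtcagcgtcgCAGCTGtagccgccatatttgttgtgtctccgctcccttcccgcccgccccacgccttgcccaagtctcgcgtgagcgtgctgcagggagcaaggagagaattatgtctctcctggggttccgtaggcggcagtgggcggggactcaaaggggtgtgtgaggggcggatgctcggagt
In the Cpt1a window (chr19:3323051-3323350, plus strand) the half-site begins at -94 and the E-box at -32.
Cpt1a: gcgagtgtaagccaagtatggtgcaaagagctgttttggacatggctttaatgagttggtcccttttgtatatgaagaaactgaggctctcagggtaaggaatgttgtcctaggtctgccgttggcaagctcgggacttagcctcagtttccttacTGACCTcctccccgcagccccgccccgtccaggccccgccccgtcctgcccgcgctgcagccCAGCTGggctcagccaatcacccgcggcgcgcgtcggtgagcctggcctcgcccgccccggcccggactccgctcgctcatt
The Acadm window (chr3:153944594-153944893, minus strand) holds the half-site at -249.
Acadm: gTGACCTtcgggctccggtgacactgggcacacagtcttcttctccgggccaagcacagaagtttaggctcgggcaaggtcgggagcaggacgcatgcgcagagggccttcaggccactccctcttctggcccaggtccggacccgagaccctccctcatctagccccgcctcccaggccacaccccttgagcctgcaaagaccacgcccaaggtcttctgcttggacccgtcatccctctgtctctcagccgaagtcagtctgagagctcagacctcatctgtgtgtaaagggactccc
Across all 32851 windows of the table, AGGTCA was present on either strand in 16.3% and CAGCTG in 16.3%. Of the 28 genes, 4 (Acadm, Acadvl, Cpt1a and Echs1) had the half-site and 3 (Acadsb, Acsl1 and Cpt1a) the E-box. A gene was counted if any of its windows held the letters, while the 16.3% is per window, so the units differ. These matches describe the letters of the windows, and binding was not measured.

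The labels were first checked against genes that mark the cell types. Levels are given as counts per 1e6 reads of a library after TMM scaling (CPM). The mean of Atoh1 was 132 ± 19.3 CPM (SD, n = 8) in tdTom+ libraries, beside 5.70 ± 1.67 CPM in tdTom− libraries. All 8 goblet cell markers tested were higher in tdTom+ cells, with Muc2, the main colonic mucin, at 4.61 ± 0.22 (SE) on the log2 scale (edgeR quasi-likelihood, adjusted p = 2.6e-13) and a summed level of 51182 to 106942 CPM against 2263 to 8807 CPM. All 8 absorptive colonocyte markers were lower, Aqp8, a water channel, by -5.18 ± 0.19 (adjusted p = 5.6e-15), with sums of 586 to 876 CPM against 6352 to 12207 CPM. The 7 enteroendocrine markers were also lower in tdTom+ cells, with sums of 311 to 787 CPM against 1343 to 3858 CPM, as were 4 of 6 tuft cell markers tested (5 with a term for the mouse), while of the 7 stem cell markers 2 were higher and 5 lower. Epcam, the surface protein used for the sort, averaged 1218 ± 74.1 against 1402 ± 74.7 CPM. All 5 epithelial markers were lower in tdTom+ cells, with log2 fold changes of -0.20 to -1.08 and a median of -0.61. Their sums were 4629 to 5302 CPM against 7245 to 9009 CPM. Of 6 proliferation genes, 2 were lower, or 5 of 6 in the fit with a term for the mouse. Immune markers summed to at most 28.3 CPM and stromal markers to at most 8.26 CPM in any library, and Dcn, a fibroblast marker, was at 0 in all tdTom+ libraries. Total counts ran from 16482530 to 24218367 in tdTom+ libraries and from 18318172 to 45791503 in tdTom− libraries, the last in mouse 4 and no other above 20668605. The part of these markers in the differences below was not tested, and in these bulk libraries fewer cells of a type and less RNA per cell cannot be told apart.

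Most of the pathway was lower in tdTom+ than in tdTom− cells. At an adjusted p under 0.01 (edgeR, 15841 genes tested), 21 of the 33 genes were lower and 3 were higher, and 9 did not pass. Of all genes tested, 25.5% were lower by this rule and 25.5% were higher. The median log2 fold change of the 33 genes was -0.44, beside 0.0039 over all genes tested, whose middle 50% lay between -0.33 and 0.33. The falls were mostly moderate: 2 genes, Pdk4 and Acaa1b, fell by more than 1 on the log2 scale, 13 lay between -1 and -0.5, and 6 were smaller than that. In 18 genes every tdTom+ library was below every tdTom− library, which held for 15.3% of all genes tested, and in 2 genes every tdTom+ library was above, which held for 15.2%. With mice 1 to 3 only, 16 genes were lower and 1 was higher, and none of the 24 calls changed sign. The share of all genes called with mice 1 to 3 only was not counted.

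**Figure D1:**
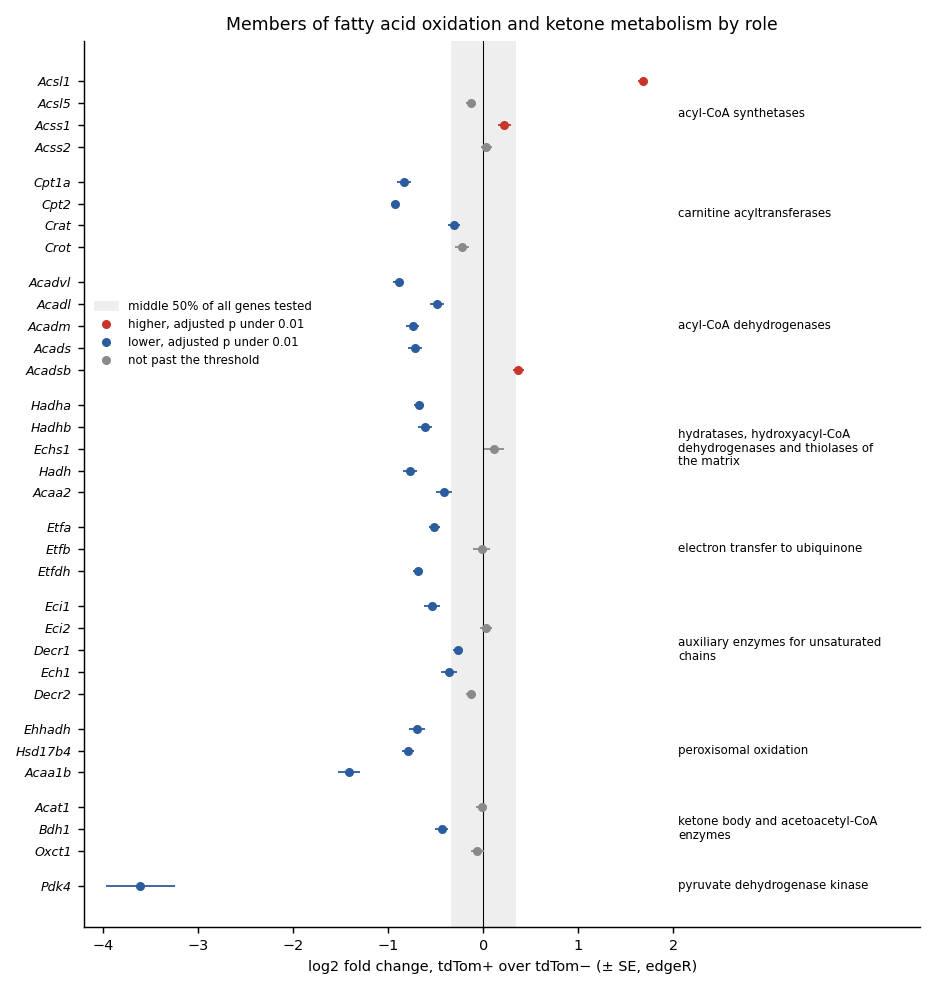
Log2 fold change of tdTom+ over tdTom− cells (x axis, points with SE bars, edgeR) for the 33 genes, grouped by role on the y axis; red and blue points passed an adjusted p of 0.01, grey points did not, and the grey band holds the middle 50% of all genes tested. Acsl1 stands to the right at 1.68 and Pdk4 to the left at -3.61, and 13 genes lie between -1 and -0.5.

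The 4 acyl-CoA synthetases, which attach coenzyme A to free fatty acids, did not share the fall. Acsl1, a long-chain synthetase, was at 88.4, 95.3 and 106 CPM (lowest, median and highest) in tdTom+ libraries and at 27.7, 29.9 and 32.4 CPM in tdTom− libraries. The groups stood far apart, and Acsl1 was 3.20-fold higher in tdTom+ cells, with a log2 fold change of 1.68 ± 0.05 (SE, adjusted p = 4.2e-16) and a difference within single mice of 1.55 to 1.94. Acsl5, the other long-chain synthetase of the list, was at 124, 133 and 143 CPM against 127, 145 and 164 CPM. These ranges overlapped, although tdTom+ was the lower sample in 8 of 8 mice, and the fold change of -0.13 did not pass (adjusted p = 0.054). As a ratio of counts, Acsl1 made up 0.725 ± 0.063 of Acsl5 in tdTom+ cells and 0.208 ± 0.018 in tdTom− cells (SD, n = 8), a comparison chosen after the values were seen. Acss1, which activates acetate in mitochondria, was slightly higher in tdTom+ cells, at 140, 151 and 185 CPM against 119, 131 and 164 CPM. Its ranges overlapped, and the log2 fold change was 0.22 ± 0.07 (adjusted p = 0.0065). Leaving out mouse 1, 3, 5, 6, 7 or 8 in turn took its adjusted p to between 0.0103 and 0.0202, and with mice 1 to 3 only it was 0.173. Acss2, the cytosolic and nuclear acetate synthetase, was at 157 ± 7.69 CPM against 153 ± 14.3 CPM, with a fold change of 0.03 (adjusted p = 0.66).

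Both carnitine palmitoyltransferases, which bring long-chain acyl groups across the mitochondrial membranes, fell in tdTom+ cells. Cpt1a, the outer-membrane enzyme at the rate-controlling step, was at 175, 197 and 239 CPM in tdTom+ libraries and at 337, 350 and 416 CPM in tdTom− libraries. No tdTom+ library reached the lowest tdTom− library, and the tdTom+ level was 56.1% of the tdTom− level (log2 -0.83 ± 0.07, adjusted p = 1.6e-09). Cpt2, the inner-membrane partner, was at 55.0, 60.5 and 64.0 CPM against 110, 115 and 124 CPM. Its level in tdTom+ cells was 52.5% of that in tdTom− cells, with a difference of -0.83 to -1.03 in single mice (log2 -0.93 ± 0.04, adjusted p = 2.6e-13). The other 2 acyltransferases changed less. Crat, which moves acetyl groups between coenzyme A and carnitine, was at 38.6, 45.8 and 49.8 CPM against 50.8, 55.7 and 63.5 CPM (log2 -0.31 ± 0.06, adjusted p = 0.00032), and its groups did not overlap. Crot, the peroxisomal carnitine octanoyltransferase, was at 36.7, 45.5 and 53.7 CPM against 47.8, 53.7 and 60.3 CPM. Its groups overlapped and its log2 fold change of -0.22 did not pass (adjusted p = 0.015), but it did in the fit with a term for the mouse, the block (-0.23, adjusted p = 0.00099). That fit called 22 of the 33 genes lower, where it called 28.9% of all genes tested lower.

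Of the 5 acyl-CoA dehydrogenases, which carry out the first step of each round on chains of different length, 4 fell and 1 rose. Acadvl, for very long chains, was at 109, 120 and 126 CPM against 207, 212 and 255 CPM. Acadm, for medium chains, was at 73.7, 84.2 and 99.0 CPM against 126, 142 and 165 CPM, and Acads, for short chains such as butyryl-CoA, was at 160, 184 and 223 CPM against 288, 297 and 343 CPM. In all 3 the tdTom+ libraries lay wholly below the tdTom− libraries, with log2 fold changes of -0.89 ± 0.06 for Acadvl (adjusted p = 1.7e-11), -0.74 ± 0.07 for Acadm (6.2e-09) and -0.72 ± 0.07 for Acads (1.7e-08). Acadl, for long chains, fell less, from 144, 179 and 202 CPM to 112, 125 and 134 CPM (-0.49 ± 0.07, adjusted p = 5.6e-06). Acadsb acts on short branched acyl groups from the breakdown of isoleucine, and it was the one dehydrogenase to rise. It was at 27.3, 29.5 and 30.9 CPM in tdTom+ libraries and at 19.4, 22.9 and 24.8 CPM in tdTom− libraries, with no overlap and the same direction in 8 of 8 mice (log2 0.37 ± 0.06, adjusted p = 8.0e-06). The ratio of Acads to Acadsb counts, also compared after the values were seen, was 6.35 ± 0.61 in tdTom+ and 13.6 ± 0.93 in tdTom− cells and was lower in tdTom+ cells in 8 of 8 mice. With mice 1 to 3 only, the adjusted p was 0.018 for Acadl and 0.020 for Acadsb.

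**Figure D2:**
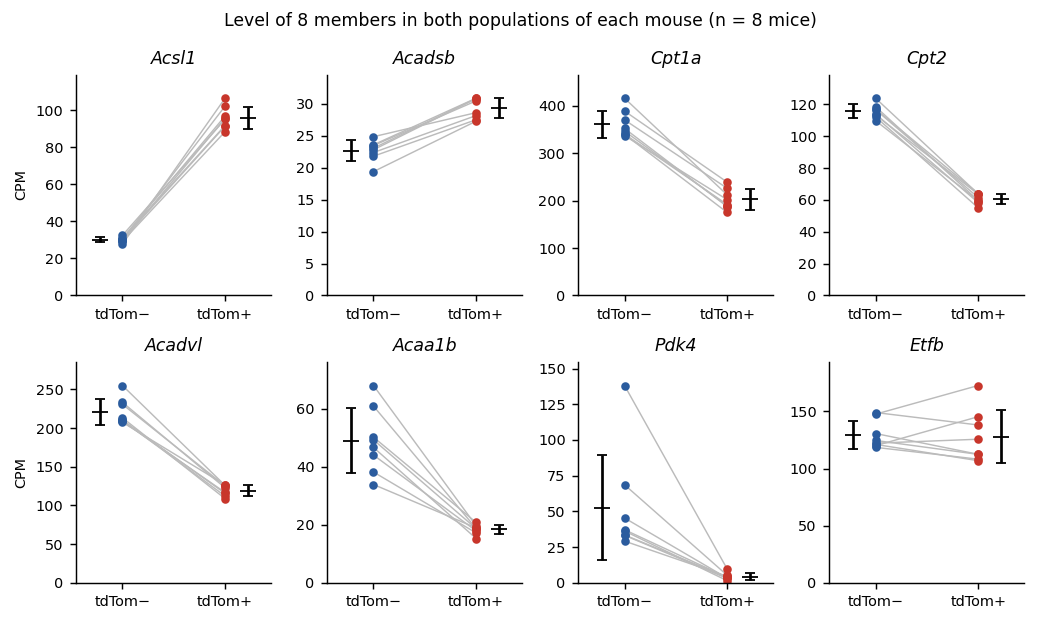
Level in CPM (y axis, from 0) of 8 genes in the tdTom− (blue) and tdTom+ (red) library of each mouse, with grey lines joining the libraries of 1 mouse and black bars for the mean ± SD of 8 mice. Every line rises for Acsl1 and Acadsb and falls for Cpt1a, Cpt2, Acadvl, Acaa1b and Pdk4, while the lines of Etfb go both ways, up in 3 of 8 mice.

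The matrix enzymes that complete each round fell with a single exception. Hadha and Hadhb encode the α and β subunits of the trifunctional protein, which takes long-chain enoyl-CoA through hydration, dehydrogenation and thiolysis. The genes lie head to head on chromosome 5, Hadha at 30118304 to 30155162 on the minus strand and Hadhb at 30155248 to 30184593 on the plus strand (GRCm38, coordinates of the count tables), with 85 bases between them. The RefSeq window of Hadhb, chr5:30155003-30155302 on the plus strand (GRCm38.p6), overlaps that of Hadha (chr5:30154931-30155230) by 228 bases. It holds the RefSeq start of Hadhb but not that of Hadha. It is shown because it covers the facing ends of the 2 gene models of the count tables, with capitals for the bases between them.
Hadhb: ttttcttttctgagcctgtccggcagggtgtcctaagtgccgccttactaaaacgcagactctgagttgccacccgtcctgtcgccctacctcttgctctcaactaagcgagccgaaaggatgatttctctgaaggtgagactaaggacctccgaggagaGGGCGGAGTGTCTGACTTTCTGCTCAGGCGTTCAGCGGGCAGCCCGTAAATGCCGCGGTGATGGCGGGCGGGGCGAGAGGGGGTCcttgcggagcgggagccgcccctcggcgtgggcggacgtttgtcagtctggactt
Hadha was at 225, 232 and 244 CPM in tdTom+ libraries and at 349, 364 and 425 CPM in tdTom− libraries. Hadhb was at 128, 144 and 165 CPM against 197, 214 and 274 CPM. Neither gene overlapped between the groups, and their log2 fold changes were -0.67 ± 0.05 for Hadha (adjusted p = 4.3e-10) and -0.62 ± 0.07 for Hadhb (3.7e-07). The ratio of Hadha to Hadhb counts was 1.62 ± 0.14 in tdTom+ and 1.68 ± 0.10 in tdTom− cells, lower in tdTom+ cells in 7 of 8 mice by a mean of 0.06 on the log2 scale; this pair too was compared after the values were seen.

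Hadh, the 3-hydroxyacyl-CoA dehydrogenase for medium and short chains, was at 193, 205 and 259 CPM in tdTom+ libraries and at 333, 350 and 404 CPM in tdTom− libraries. The groups did not overlap, and the log2 fold change was -0.77 ± 0.07 (adjusted p = 7.8e-09). Acaa2, the matrix thiolase, was at 97.1, 107 and 134 CPM against 128, 144 and 181 CPM. Its groups overlapped at the edges, though tdTom+ was lower in 8 of 8 mice (-0.41 ± 0.08, adjusted p = 0.00021). Echs1, the short-chain enoyl-CoA hydratase, was the exception. It was at 137, 170 and 234 CPM in tdTom+ libraries and at 140, 163 and 186 CPM in tdTom− libraries, higher in tdTom+ in 5 of 8 mice, and the fold change of 0.11 ± 0.10 did not pass (adjusted p = 0.36).

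The electron transfer flavoprotein is a dimer of the products of Etfa and Etfb, and the counts of its 2 genes moved apart. Etfa was at 107, 114 and 137 CPM in tdTom+ libraries and at 156, 167 and 181 CPM in tdTom− libraries, without overlap (log2 -0.52 ± 0.06, adjusted p = 1.3e-07). Etfb was at 107, 119 and 173 CPM against 119, 123 and 149 CPM, with a fold change of -0.02 ± 0.09 (adjusted p = 0.88). Its differences within mice ran from -0.22 to 0.28, and they were positive in mice 1, 2 and 4. The ratio of Etfa to Etfb counts was 0.933 ± 0.132 in tdTom+ cells and 1.30 ± 0.06 in tdTom− cells (SD, n = 8) and was lower in tdTom+ cells in 8 of 8 mice, another comparison chosen after the values were seen. Etfdh, the membrane enzyme that hands these electrons to ubiquinone, was at 64.5, 70.5 and 79.9 CPM against 105, 115 and 124 CPM and fell by 0.68 ± 0.05 on the log2 scale (adjusted p = 1.8e-10).

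Of the 5 auxiliary enzymes, which prepare double bonds of unsaturated chains for the cycle, 3 fell. Eci1, a mitochondrial enoyl-CoA isomerase, was at 24.3, 29.8 and 36.0 CPM against 36.2, 43.6 and 52.1 CPM. The groups just failed to overlap (log2 -0.54 ± 0.09, adjusted p = 1.9e-05). Ech1, a dienoyl-CoA isomerase, averaged 158 ± 20.2 CPM against 203 ± 23.9 CPM (-0.36 ± 0.08, adjusted p = 0.00071), and Decr1, the mitochondrial dienoyl-CoA reductase, at 66.6 ± 5.84 against 80.0 ± 4.93 CPM (-0.27 ± 0.06, adjusted p = 0.00044). Both overlapped between the groups and were lower in tdTom+ cells in 8 of 8 mice. Eci2, the second isomerase, was at 43.2 ± 4.29 against 42.4 ± 2.57 CPM (0.03, adjusted p = 0.70). Decr2, the peroxisomal reductase, was at 45.4 ± 1.29 against 49.7 ± 3.07 CPM, and its fold change of -0.13 did not pass (adjusted p = 0.018), although tdTom+ was the lower sample in 8 of 8 mice.

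All 3 enzymes of the peroxisomal oxidation group, which leaves out Crot and Decr2, fell. Ehhadh, the L-bifunctional enzyme, was at 46.3, 52.9 and 54.5 CPM in tdTom+ libraries and at 66.3, 82.2 and 103 CPM in tdTom− libraries. Hsd17b4, the D-bifunctional enzyme, was at 59.3, 65.4 and 74.0 CPM against 103, 115 and 124 CPM. Acaa1b, a peroxisomal thiolase, was at 15.2, 18.7 and 20.8 CPM against 33.8, 47.9 and 67.9 CPM. None of these genes overlapped between the groups, and the log2 fold changes were -0.70 ± 0.08 for Ehhadh (adjusted p = 1.7e-07), -0.79 ± 0.06 for Hsd17b4 (3.6e-10) and -1.41 ± 0.12 for Acaa1b (1.1e-09). The tdTom− libraries of mice 1 to 3 were higher than those of mice 5 to 8 for Acaa1b, at a mean of 59.7 against 40.7 CPM, while the tdTom+ libraries stayed close, at 19.7 against 17.3 CPM. The fall of Acaa1b within single mice ranged from -0.84 to -1.79. Acaa1b and its close paralog Acaa1a share sequence, so the split of reads between them is uncertain; Acaa1a itself was at 75.6 ± 6.47 against 117 ± 7.53 CPM (-0.63 ± 0.06, adjusted p = 7.4e-09).

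Of the 3 enzymes of ketone bodies and acetoacetyl-CoA, 1 fell. Bdh1, which interconverts acetoacetate and 3-hydroxybutyrate, was at 128, 140 and 177 CPM in tdTom+ libraries and at 180, 192 and 237 CPM in tdTom− libraries. No tdTom+ library reached the lowest tdTom− library (log2 -0.44 ± 0.07, adjusted p = 1.6e-05). Acat1, the mitochondrial acetoacetyl-CoA thiolase, was at 162, 170 and 183 CPM against 151, 173 and 199 CPM, with a fold change of -0.02 ± 0.06 (adjusted p = 0.80). Oxct1, which activates acetoacetate so that ketone bodies can be burned, was at 210, 231 and 265 CPM against 207, 250 and 283 CPM (-0.06 ± 0.07, adjusted p = 0.46). For both genes the groups overlapped over most of their range.

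Pdk4 changed most of the 33 genes. Its product, a pyruvate dehydrogenase kinase, restrains the entry of pyruvate into the citric acid cycle when fat is oxidized. In tdTom+ libraries of mice 1 to 8 it was at 5.24, 9.65, 3.75, 4.44, 3.93, 3.23, 3.05 and 1.46 CPM, and in the tdTom− libraries of the same mice at 68.6, 138, 37.1, 29.2, 33.5, 45.4, 33.2 and 36.2 CPM. The groups did not overlap, and mice 1 and 2 were highest in both. The tdTom+ level was 8.20% of the tdTom− level, with a log2 fold change of -3.61 ± 0.36 (adjusted p = 2.8e-08). Its tdTom− level had the widest spread of the 33 genes, with a coefficient of variation of 69.7% beside 22.9% for Acaa1b, the next. The difference within mice lay between -2.69 and -4.54. None of the other 3 kinases measured, Pdk1, Pdk2 and Pdk3, passed, at 0.16, -0.05 and 0.17, although Pdk1 passed in the block fit.

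**Figure D3:**
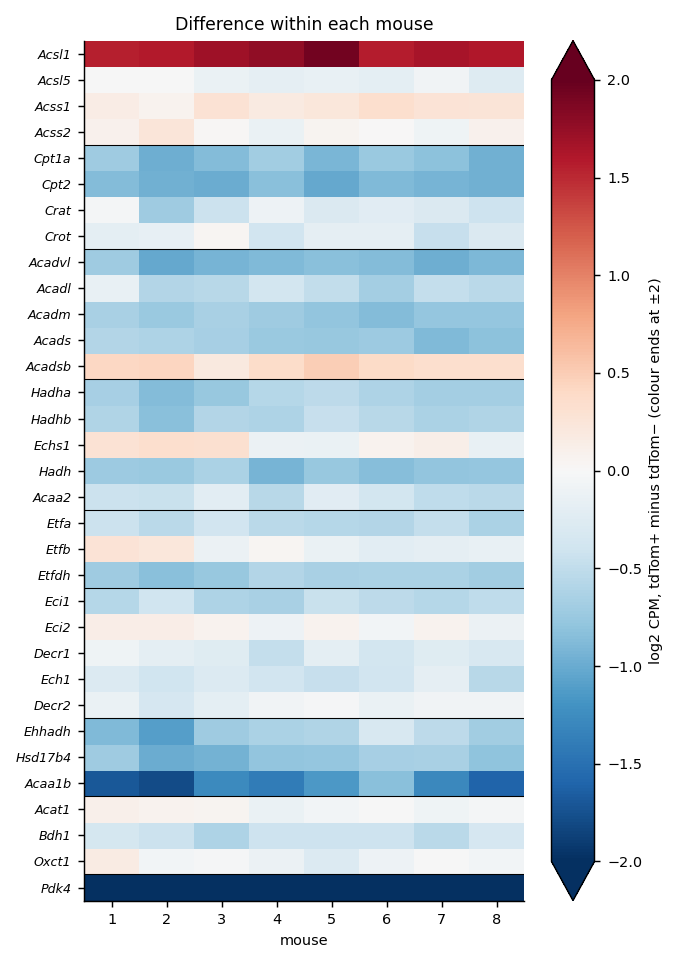
Difference in log2 CPM between the tdTom+ and tdTom− library of each mouse (columns, mice 1 to 8) for the 33 genes (rows, in the order of their roles, with lines between roles); red is higher and blue lower in tdTom+ cells, and the colour scale ends at 2 in both directions. Of the 33 genes, 23 are lower and 3 are higher in all 8 mice, and the other 7 change sign between mice. The share of all genes tested that went 1 way in all 8 mice was not counted, so these numbers only describe the list.

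Levels of different genes were compared per kilobase of exon (FPKM, from CPM and the exon length in the count tables). In tdTom− cells they ran from 3.18 FPKM for Acsl1 to 135 FPKM for Acads, and in tdTom+ cells from 1.24 FPKM for Pdk4 to 112 FPKM for Etfb. Acads was at 82.1 ± 9.59 FPKM in tdTom+ and 135 ± 9.31 FPKM in tdTom− cells (SD, n = 8). Acsl1, the gene that rose most, remained at a low level per length, 10.2 ± 0.63 FPKM in tdTom+ cells, below Acsl5 at 42.1 ± 2.33 FPKM. Cpt1a was at 47.2 ± 5.01 FPKM and Acadvl at 44.4 ± 2.54 FPKM in tdTom+ cells. Exon length here is the union of all annotated exons, so genes with long alternative exons are understated.

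**Figure D4:**
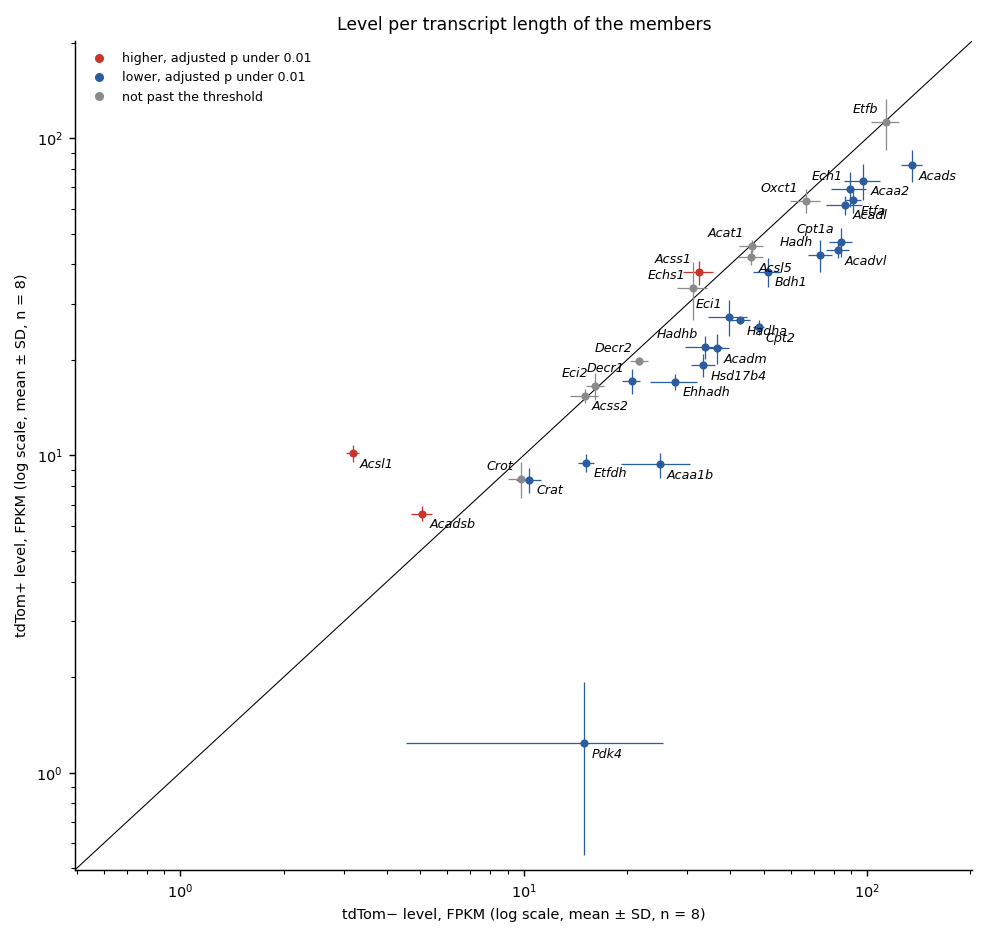
Mean level per exon length of each of the 33 genes in tdTom− cells (x axis) and tdTom+ cells (y axis), both in FPKM on log scales, with SD bars over 8 mice; red and blue points were higher or lower in tdTom+ cells at an adjusted p of 0.01, and the line marks equal levels. Acsl1 lies above the line at 10.2 against 3.18 FPKM, Pdk4 far below it at 1.24 against 15.0 FPKM, and most blue points run along and below it.

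The other genes of the pathway, taken from lists of related genes, showed where the difference extended. All 5 other carnitine genes tested were lower, with a median log2 fold change of -1.29. Among them Slc25a20, the translocase that exchanges acylcarnitine for carnitine across the inner membrane, went from 201 ± 45.9 to 52.2 ± 12.0 CPM (-1.95 ± 0.15, adjusted p = 3.3e-10), and Slc22a4, an organic cation transporter, fell by 2.71 from a level of only 1.24 CPM. The tdTom+ libraries held 0 to 0.382 CPM of Slc22a4, close to or below a floor of 3 counts, so the size of its fall is imprecise. Of 10 other acyl-CoA synthetases tested, 5 were lower, among them Slc27a4 (-1.34) and Acsm3 (-1.19), and 3 were higher, among them Acsl4 (1.15), which prefers arachidonate, and Slc27a1 (0.96). Of 13 other peroxisomal genes tested, 6 were lower and 3 higher. Abcd3, a transporter of the peroxisomal membrane, fell by 0.70, while Pecr, an enoyl-CoA reductase of chain elongation, rose by 0.97.

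Enzymes of amino acid and propionyl-CoA breakdown and further dehydrogenases of the matrix were mixed in direction. Of 15 tested, 6 were higher and 4 lower, with a median of 0.08. Pccb, a subunit of propionyl-CoA carboxylase, rose by 0.78 ± 0.05 (adjusted p = 9.3e-11), whereas its partner subunit Pcca fell by 0.39 ± 0.05 (adjusted p = 3.1e-06). Auh, a hydratase of leucine breakdown, rose by 0.40, and Acad11, a dehydrogenase of long chains, fell by 0.61. Of 8 acyl-CoA thioesterases tested, 5 were lower and 2 higher. Acot4 fell by 2.43 and Acot1 by 0.99, Acot7 rose by 0.50, and reads of Acot1 and its near-identical neighbour Acot2 may be divided uncertainly. Of 5 other ketone body genes tested, 2 were higher and 1 was lower, with a median of -0.20, and the block fit called 2 lower. The lower genes are not reported here. Aacs and Acat2, which use acetoacetate or acetyl-CoA for sterol and lipid synthesis in the cytosol, rose by 1.02 and 0.46.

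Of 19 regulators of fatty acid oxidation, 13 were lower and 2 higher, with a median of -0.54, and the block fit called 15 lower. Ppara, the nuclear receptor that drives many of these genes in liver, went from 19.9 ± 3.06 to 6.33 ± 1.26 CPM (-1.65 ± 0.12, adjusted p = 1.4e-10). Creb3l3, a membrane-bound transcription factor that works with PPARα, went from 11.2 ± 5.41 to 0.266 ± 0.102 CPM (-5.38 ± 0.32, adjusted p = 8.8e-12). Its tdTom+ libraries held 0.102 to 0.388 CPM, close to the floor of 3 counts (0.124 to 0.182 CPM), so the size of this fall is imprecise. Prkaa2, a catalytic subunit of AMP-activated kinase, and Mlycd, which degrades malonyl-CoA, rose by 0.70 and 0.62. Of 6 genes tested that are targets of PPAR receptors outside the pathway, 5 were lower, with Cidec at -4.43 and Vnn1 at -4.30, and Ucp2 was higher at 0.17. Cidec, at 0.0598 to 0.615 CPM in tdTom+ libraries, also came close to the floor of 3 counts. Of 7 carriers of monocarboxylates tested, 4 were lower and 1 higher. Slc16a3 fell by 3.64 from 11.6 CPM, Slc16a1 and Slc5a8, both of which carry butyrate, each fell by 1.86, from 356 ± 35.7 and 363 ± 54.4 CPM, and Slc16a7 rose by 2.24.

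Most of the general mitochondrial genes were also lower. The share of all counts that fell on genes of the mitochondrial genome was 2.23% to 6.92% in tdTom+ libraries and 3.74% to 9.97% in tdTom− libraries, lower in the tdTom+ library in 8 of 8 mice, and its part in the falls of the 33 genes was not tested. Of 17 general mitochondrial genes tested, 10 were lower and 1 higher, with a median of -0.30, beside -0.44 for the 33 genes. Vdac3, a porin of the outer membrane, fell by 1.02 and Cs, citrate synthase, by 0.78, and Tomm20, a subunit of the import receptor, rose by 0.35. Of 11 genes of the pyruvate dehydrogenase complex and its regulators, 2 were lower, Dlat and Pdhx at -0.22 each. The block fit called 3 lower, adding Dld (-0.15), and 1 higher, Pdk1 (0.16).

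**Figure D5:**
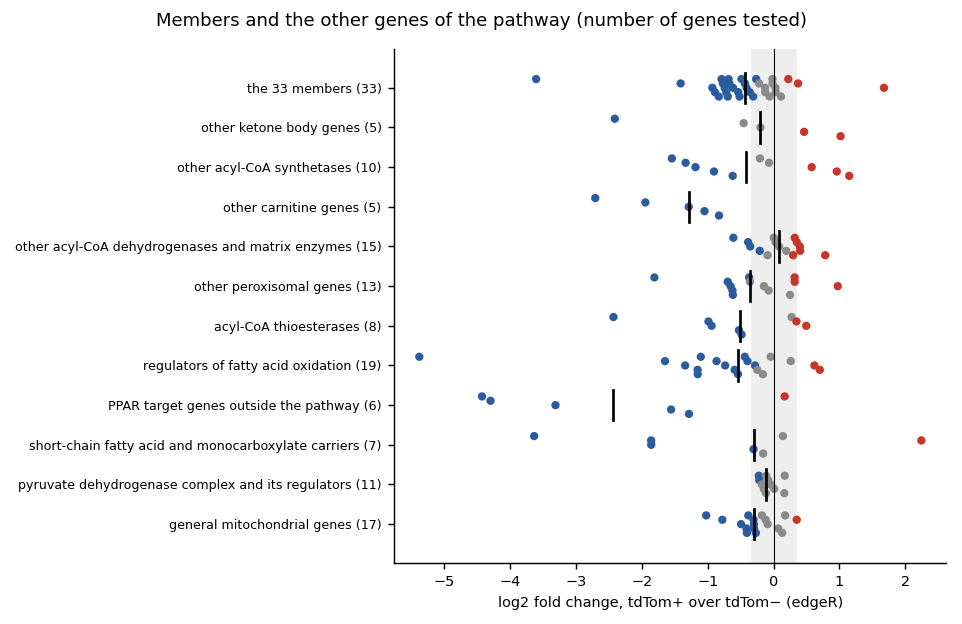
Log2 fold change of tdTom+ over tdTom− cells (x axis, edgeR) for the 33 genes and for each list of related genes (rows, with the number of genes tested), 1 point per gene; red and blue points passed an adjusted p of 0.01, black bars are list medians and the grey band holds the middle 50% of all genes tested. The carnitine genes and the PPAR targets have the lowest medians, -1.29 and -2.44, and the pyruvate dehydrogenase genes lie close to 0.

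The level of a gene in tdTom+ and tdTom− cells of the same mouse was compared across the 8 mice. Pearson's r of log2 CPM was positive for 30 of the 33 genes, with a median of 0.65, beside 0.35 for all genes tested. After correction over the 33 genes, none passed an adjusted p of 0.05 by Pearson's r (exact permutation test, two-sided; 11 had an unadjusted p under 0.05), and 1, Eci1, passed by Spearman's rho. For Eci1, r was 0.90 (exact permutation p = 0.0035, adjusted p = 0.091) and rho 0.95 (exact permutation p = 0.0011, adjusted p = 0.038). Without the 2 mice farthest from the median of the tdTom− level, r of Eci1 was 0.72. For Pdk4, r was 0.72 (exact permutation p = 0.068, adjusted p = 0.15) and rho 0.43 (exact permutation p = 0.30, adjusted p = 0.39), and r was -0.28 without the 2 farthest mice. Dropping extreme mice narrows the range and can itself lower r, and no relation of Pdk4 had passed with all 8 mice. Over all 33 genes the median r without the 2 farthest mice was 0.38. The mouse numbers form series of 3, 1 and 4 mice, too few for an r within each.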

How the data were processed

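The 16 RNA libraries were made from sorted colonic epithelium of 8 mice, 1 of each population per mouse. Stranded mRNA libraries were aligned by the authors with TopHat2 to GRCm38.p3, per the submitters' processing notes, and the deposited values are raw counts per gene on exons (featureCounts, 45513 genes, reverse strand, primary alignments), without normalization. No column was left unmapped (0). Groups came from the labels, and the titles share a mouse number between both libraries of an animal. Deviations from the group means correlated within every mouse (0.22 to 0.41, at most 0.17 between mice), so the numbers pair the libraries. No libraries of a group agreed within sampling noise. Total counts ran from 16482530 to 45791503, and 3 counts was taken as the floor, which covers counting error only.

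The quasi-likelihood test of edgeR 4.0.16 (R 4.3.3) was run on the counts after filterByExpr and TMM scaling, without a mouse term since the study states none, over 15841 genes. The threshold was 0.01 after Benjamini-Hochberg adjustment. The SE is the log2 fold change divided by the root of F, and log2 CPM used a prior count of 2. The alternatives were RLE and upper-quartile normalization, no filter, at least 10 counts in every sample, DESeq2 1.42.0, limma-voom (limma 3.58.1), the mouse as a block, each mouse left out, mice 1 to 3 or 5 to 8 only, and an adjusted p of 0.05. Tables and figures were made with Python 3.11.15, pandas 2.3.3, numpy 2.4.6, scipy 1.17.1 and matplotlib 3.10.9. Fits were tested on simulated data.

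The 33 genes, the lists of related genes and the markers were chosen with earlier results of these data known. All 33 genes are named, and of each related list the 2 with the largest change in each direction among those past the threshold and alike in 8 mice. Acaa1a, Dld and the other kinases were named after their values were seen, and some genes of the related lists are not reported here. Symbols came from GENCODE M21 for 44585 genes, and promoter windows from RefSeq (GRCm38.p6). Libraries are separate mice within a population, but both populations came from the same 8 mice. The main fit treats the 16 libraries as independent, so its p-values do not use the pairing by mouse. The block fit does use it. Small intestinal samples were not used here.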

Additional observations from a re-analysis of the deposited data

Results flagged for a closer look

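Among the 33 genes and the total count, each looked at in both groups (68 groups of 8 libraries), 3 had 1 library far from the others, where chance gives about 1 in 20, or 3.4. All 3 were the tdTom− library of mouse 4. Its total was 45791503 counts, against 18318172 to 20668605 in the other tdTom− libraries. Its Acss1 level was 7.36 log2 CPM, against 6.89 to 7.09, and its Bdh1 level was 7.89 log2 CPM, against 7.49 to 7.62. Without mouse 4 the log2 fold change was 0.25 for Acss1 (adjusted p = 0.00025, edgeR) and -0.42 for Bdh1 (adjusted p = 6.9e-07). The part of sequencing depth in these levels was not tested.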

How the results depend on the processing

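The 24 called genes kept their direction in all 408 fits of the 17 alternatives, and in 395 of them their side of the threshold. The exceptions were 13 values of 7 genes: Acss1 when any of 6 mice was left out, and Acss1, Crat, Acadl, Acadsb, Acaa2, Decr1 and Ech1 with mice 1 to 3 only, where fewer samples were used and 1 gene was higher against 3. Leaving out each mouse gave 2 to 3 genes higher, 21 to 22 lower and a median of -0.45 to -0.42. With the mouse as a replicate block, 3 genes were higher and 22 lower (Crot added), and the median was -0.44. The block changed no other call of the 33 genes. At an adjusted p of 0.05, 23 were lower. Shares of all genes tested were counted only for the main fit and the block fit at 0.01, so the other counts lack that comparison. Among the 9 genes that did not pass, the sign turned with mice 1 to 3 only for Etfb (0.13), Acat1 (0.078) and Oxct1 (0.029), with mice 5 to 8 only for Echs1 (-0.015) and Eci2 (-0.0072), and on leaving out single mice for Etfb (-0.055 to 0.016) and Acat1 (-0.029 to 0.022). The cause was not tested. Scalings and filters moved the median of all genes by less than 0.1. The smallest count of a gene in any library was 37, for Pdk4, and 299 for the others, so depth limits Pdk4 most.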
